A study of Mus musculus with 60 samples.

Results

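The mitosis and G2 genes are a list of 49 mouse genes whose products act between the end of DNA synthesis and the separation of daughter cells, and they were followed here in mammary glands of ovariectomized mice given ovarian hormones. A probe set was counted as a member when the array's annotation gave it exactly 1 gene symbol and that symbol was on the list. This gave 47 of the 49 genes, with 94 of the 36899 probe sets on the 3 array types. Ccnb1 and Hmmr had no such probe set. Of the 94, 53 probe sets of 37 genes were bright enough to be tested, out of 23055 probe sets tested in all. Melk, Ttk, Bub1, Kif4, Kif20a, Aurka, Cdkn3, Tacc3, Ect2 and Cenpf had a probe set but none that passed. The rule itself used no measured value, but the members were chosen with earlier results of these data known.

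RNA came from 20 ovariectomized mice, each hybridised to 1 array of each of 3 Affymetrix types (A, B and C). All were injected into the peritoneum once a day for 4 days. Group V, with 4 mice, received 100 μl of sesame oil, per its titles and treatment protocol, although its description field names progesterone. That field reads the same for groups P, E+P and E+P CFP, and the titles and protocols were used for every group. Group E, with 4 mice, received 2 μg of estrogen, and group P, with 4 mice, received 1 mg of progesterone. Group E+P, with 5 mice, received both hormones at these amounts. Group E+P CFP comprised 3 mice given both hormones whose fat pads held no epithelium. Lymph nodes had been taken out of the glands. Every group lacked ovaries, and the labels state neither strain nor age. The titles call the animals biological replicates.

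Entry into mitosis is driven by the kinase Cdk1 bound to a cyclin of the A or B type. Aurora kinases, Polo-like kinase and the chromosomal passenger complex then build and correct the spindle, the checkpoint proteins of the Bub and Mad families hold back the anaphase-promoting complex until all chromosomes are attached, and kinesins and their partners at the midzone divide the cell. These genes are transcribed in the same part of the cycle. Their transcripts are scarce in resting cells, which is why their summed level is widely used as a measure of proliferation. In the mammary gland, estrogen and progesterone are the hormones of ductal growth and side branching, and both act through receptors in luminal cells.

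Promoters of this class often hold a cell cycle homology region, TTTGAA, bound by the DREAM and B-Myb–MuvB complexes, and CCAAT boxes bound by NF-Y. The 250 bases before the annotated start are printed for 3 genes whose signal was higher under both hormones (Cdk1, Ccnb2 and Mki67) and that hold both elements, and for Cenph, which was also higher and holds neither there. Capitals mark TTTGAA or CCAAT, or their reverse complements TTCAAA and ATTGG. Sequences run 5′ to 3′ on the gene's strand and come from RefSeq, build GRCm38.p6.
Cdk1, chr10:69352913-69353162, minus strand: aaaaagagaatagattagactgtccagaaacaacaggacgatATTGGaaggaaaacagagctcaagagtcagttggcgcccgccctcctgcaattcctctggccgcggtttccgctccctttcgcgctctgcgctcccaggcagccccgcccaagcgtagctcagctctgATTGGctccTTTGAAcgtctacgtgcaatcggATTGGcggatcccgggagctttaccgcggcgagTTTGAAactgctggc
Ccnb2, chr9:70421555-70421804, minus strand: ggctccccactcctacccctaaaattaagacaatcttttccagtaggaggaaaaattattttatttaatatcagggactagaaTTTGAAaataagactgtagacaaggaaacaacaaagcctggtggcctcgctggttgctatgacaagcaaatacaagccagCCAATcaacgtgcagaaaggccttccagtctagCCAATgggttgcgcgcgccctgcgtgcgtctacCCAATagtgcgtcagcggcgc
Mki67, chr7:135716380-135716629, minus strand: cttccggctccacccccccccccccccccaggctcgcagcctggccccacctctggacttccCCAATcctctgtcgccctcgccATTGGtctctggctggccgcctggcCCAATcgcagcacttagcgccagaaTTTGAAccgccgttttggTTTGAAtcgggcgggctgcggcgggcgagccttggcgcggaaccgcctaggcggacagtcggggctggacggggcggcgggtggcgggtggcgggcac
Cenph, chr13:100775900-100776149, minus strand: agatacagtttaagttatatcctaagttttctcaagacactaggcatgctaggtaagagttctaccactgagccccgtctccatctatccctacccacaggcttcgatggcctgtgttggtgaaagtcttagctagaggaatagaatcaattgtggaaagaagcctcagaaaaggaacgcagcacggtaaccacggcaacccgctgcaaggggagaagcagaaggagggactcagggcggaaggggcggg

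Cdk1 had 2 matches to TTTGAA and 3 to CCAAT in this stretch, Ccnb2 had 1 and 3, and Mki67 had 2 and 3. Windows of 300 bases, which add 50 bases after the start, were found for 39 of the 49 members. On either strand, with overlaps between the motifs allowed, TTTGAA was in a window of 27 of the 39 (69.2%), CCAAT in 33 (84.6%) and both in 26 (66.7%). Over all 27025 genes with a window the shares were 20.2%, 41.1% and 7.97%. Among the members, TTTGAA was found for 7 of the 9 genes past the threshold in E+P against V that had a window, and for 13 of the 19 tested genes that were not past it. CCAAT was found for 8 of those 9 and 16 of those 19. A match is a match of letters and not a measured binding site.

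Values below are log2 signals. Each array was brought to a common trimmed mean and values under a floor were set to it, at 3.75 on array A and 4.83 on array B, so a value at the floor is only an upper bound. A difference is between group means on this scale, ± its standard error (SE). A probe set was past the threshold when limma's moderated test, with Benjamini-Hochberg adjustment over all 23055 tested probe sets, gave an adjusted p under 0.05. Each gene is described by 1 representative probe set, 31 of them on array A and 6 on array B. The number of arrays limits the precision. A filter on low values favours genes that are bright in some group: 48 of the 53 member probe sets would have passed without the E+P animals, and 33 without the E+P and E animals. The probe sets of Cdc25c, Kif2c, Kif11, Top2a and Bub1b passed it only with the E+P animals. Among those that needed the E or E+P animals were tested probe sets of Cdk1, Birc5, Mki67, Cenph and Pbk. High signal in E+P is thus partly built into the tested set. With no filter, 8 of the 94 member probe sets were past the threshold and higher in E+P against V, against 0.0981% of all 36701. Their median difference was 0.66, against 0 over all. In E against V 2 were higher (0.0218% of all), in E+P against P 2 (0.104%) and in E+P against E+P CFP 26 (3.07%).

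Some animals stood apart before any comparison. Gapdh signal from probes near the 3′ end over that near the 5′ end, a sign of RNA integrity, was highest in E+P CFP 1 (4.23) and V 4 (3.42), against 1.23 to 2.75 in the other 18 animals. Skeletal muscle markers were high in E 1 (mean deviation 2.05 on the log2 scale) and in the fat pads (2.17 to 2.82). Of the V animals, V 4 had a score of 1.20 over 17 lymphocyte and plasma cell markers, against -1.25 to -1.20 in the other 3. Without V 4, E 1 and E+P CFP 1, 12 member probe sets were past the threshold in E+P against V and 17 in E+P against E+P CFP. Over all probe sets 55 were then higher and 47 lower in E+P against V, against 58 and 49 with all animals. In E+P against E+P CFP 805 were higher and 268 lower, against 1208 and 613.

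Estrogen and progesterone together gave the highest signal of these genes. The group mean was highest in E+P for 31 of 37 genes (83.8%, against 21.8% of all genes tested), and lowest in E+P CFP for 24 (64.9%, against 31.0%). The 37 include Cdc25c, Kif2c, Kif11, Top2a and Bub1b, which passed the filter on low values only with the E+P animals. Among the intact glands, 24 of the 37 genes had group means in the order E+P, E, P, V. The deviation from each gene's mean over the 20 animals, averaged over the 37 genes, was -0.46 ± 0.19 (SD, n = 4) in V and 0.26 ± 0.33 (n = 4) in E. In P it was -0.12 ± 0.19 (n = 4), in E+P 0.67 ± 0.42 (n = 5) and in E+P CFP -0.69 ± 0.17 (n = 3). The E+P animals ran from 0.28 to 1.33 and lay above every V, P and fat pad animal. The E animals, from -0.14 to 0.62, overlapped both P and E+P. One animal, E+P 2, had the highest value of its group for 31 of the 37 genes.

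**Figure D1:**
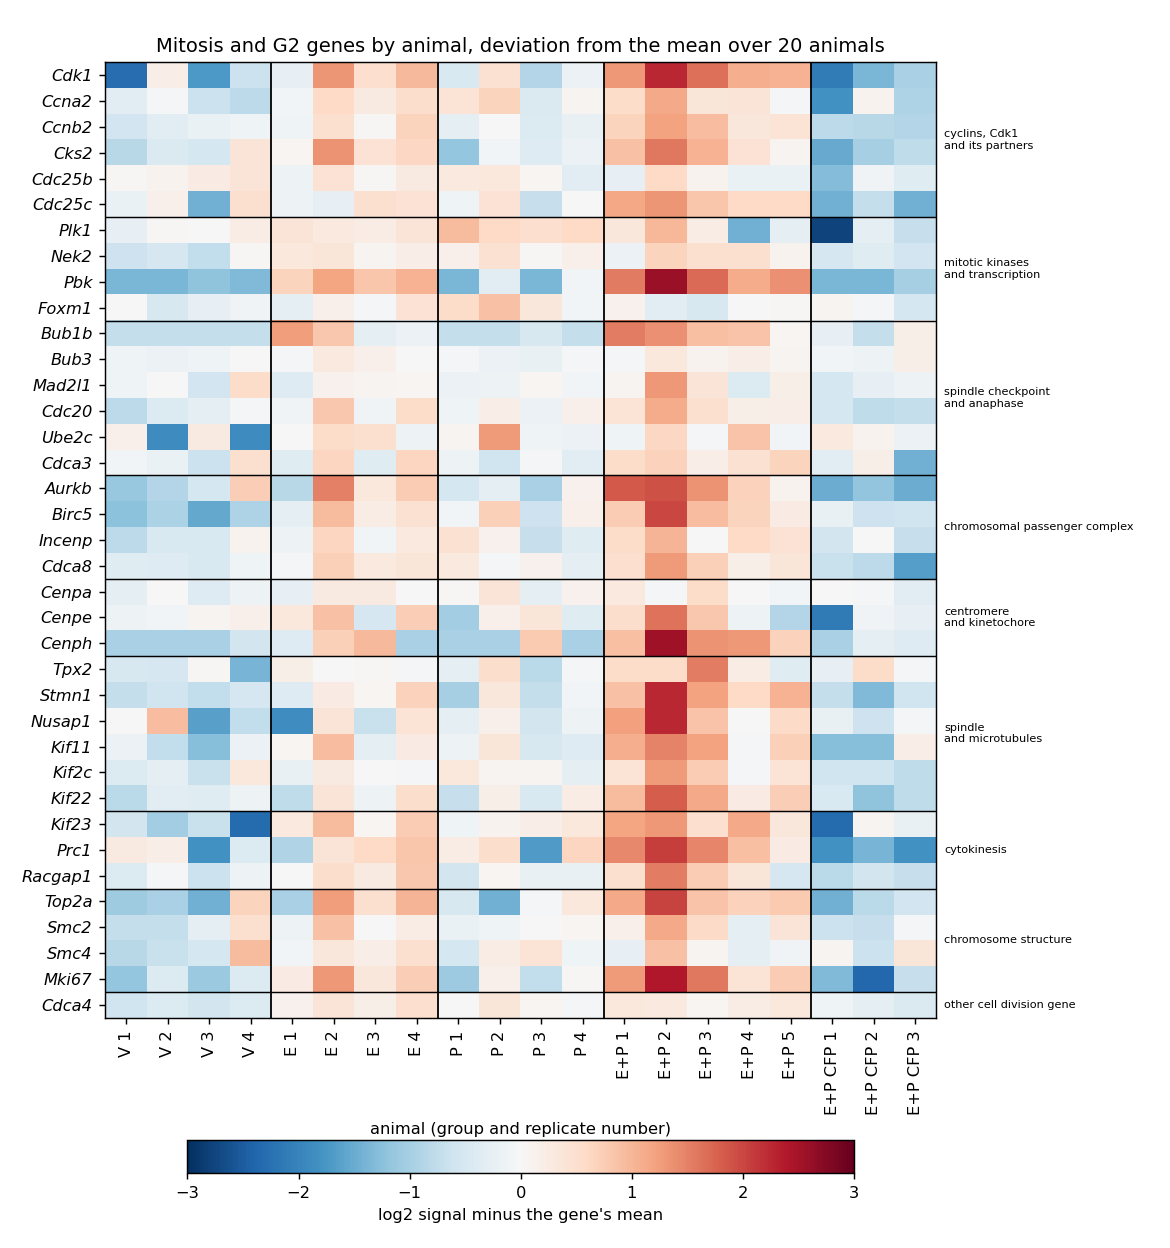
Log2 signal of the 37 tested mitosis and G2 genes (rows, by role) in 20 animals (columns, by group), as the deviation from each gene's mean over the animals; red is above and blue below the mean. The E+P columns are mostly red, with E+P 2 the highest for 31 genes, and the V and E+P CFP columns are mostly blue.

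Of 53 member probe sets, 11 (20.8%) were higher in E+P than in V and none was lower. The background was 0.252% of all tested probe sets higher and 0.213% lower. The 11 belonged to Pbk, Cdk1, Cenph, Birc5, Mki67, Kif23, Stmn1, Bub1b, Kif22, Ccnb2 and Cdca4, and for each the E+P animals did not overlap the V animals. Over representative probe sets these groups were apart for 17 of the 37 members (45.9%) and for 5.42% of all genes. The median difference over the member probe sets was 0.86, against 0.01 over all. Leaving out V 3 or E+P 2 gave a count of 6, leaving out V 1, V 2 or E+P 3 gave 7, and a fit on the V and E+P animals alone, with fewer animals behind the spread, gave 5. Calls over all probe sets also fell, from 58 higher and 49 lower with all animals. They were 24 and 10 without V 3, 22 and 11 without E+P 2, and 30 and 14 in the fit on V and E+P alone. Without V 1, V 2 and E+P 3 the higher calls were 46, 33 and 36. Pbk, Cdk1, Birc5, Stmn1, Ccnb2 and Cdca4 stayed past the threshold whichever animal was left out. In a bulk sample, more dividing cells and more transcript per cell cannot be told apart.

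**Figure D2:**
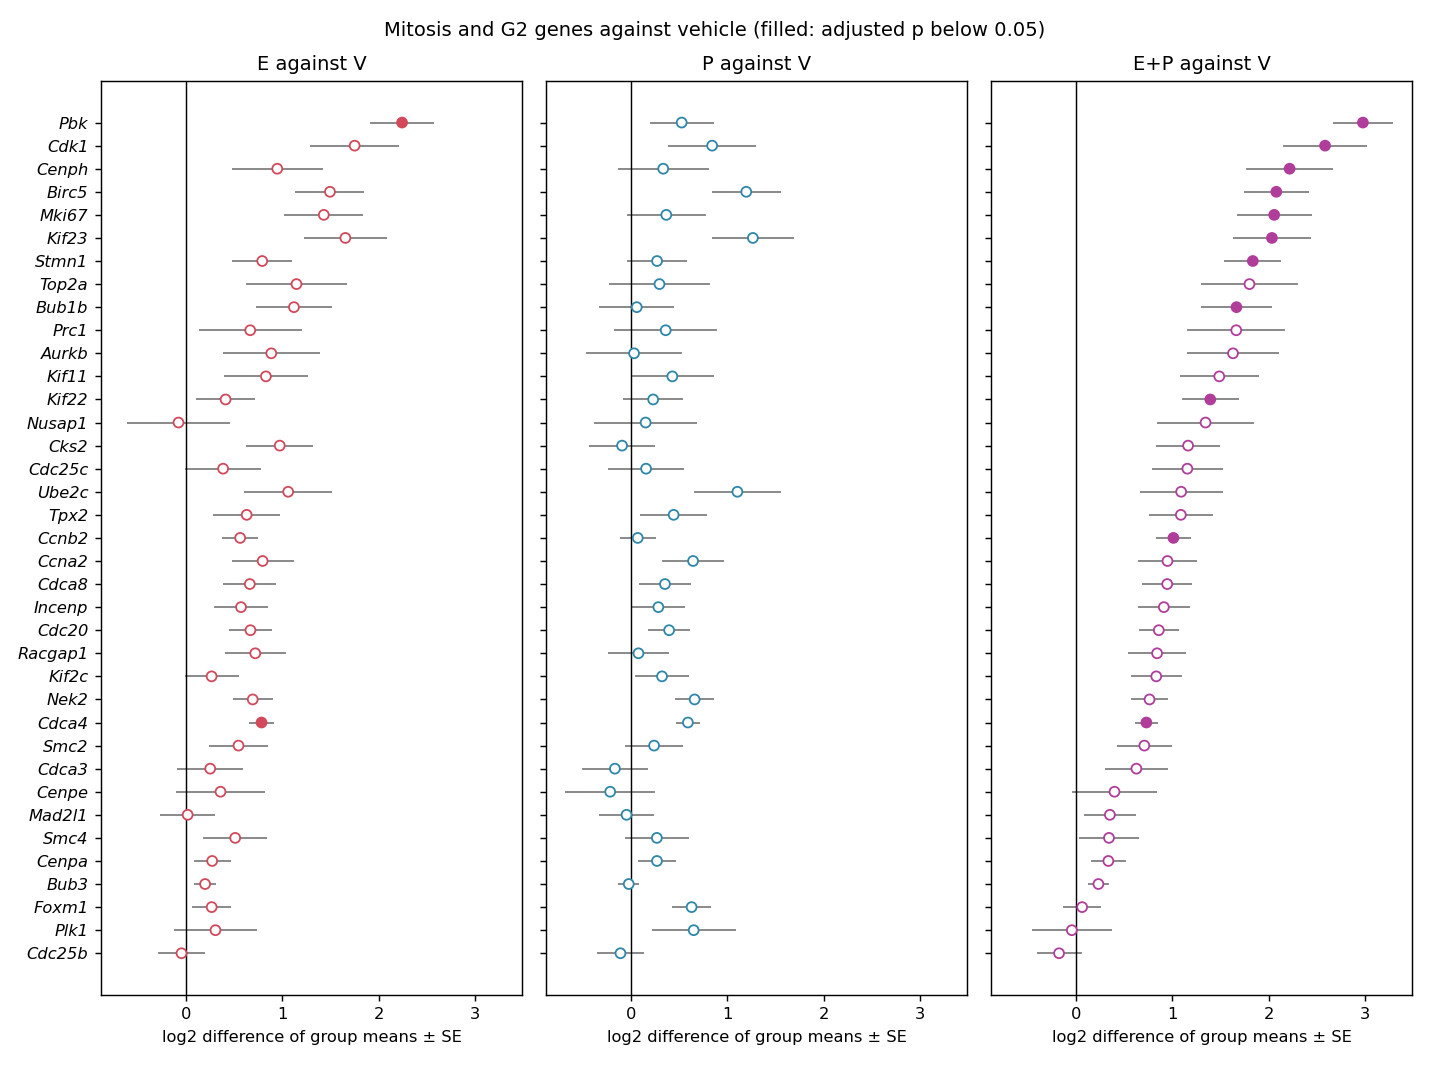
Difference of group means from V (horizontal axis, log2, ± SE) for 37 mitosis and G2 genes in E, P and E+P; filled points had an adjusted p under 0.05. In E+P 11 points are filled, in E only those of Pbk and Cdca4, and in P none.

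Among cyclins, Cdk1 and its partners, 2 of 6 tested genes rose in E+P against V, Cdk1 and Ccnb2. Cdk1, the kinase that starts mitosis, read 3.75, 6.24, 4.30 and 5.40 in the V animals and 7.34, 8.30, 7.69, 7.13 and 7.08 in the E+P animals. In between, it read 5.78, 7.36, 6.55 and 7.01 in the E animals and 5.57, 6.49, 5.14 and 5.86 in the P animals. The lowest E+P value of Cdk1 lay above the highest V and P values, while 1 E animal, E 2, lay within the E+P range. Cdk1 was higher in E+P than in V by 2.59 ± 0.44 (limma, adjusted p = 0.00786). The V animals spread widely for Cdk1, with V 1 at the floor and an SD of 1.11.

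Ccnb2, a B-type cyclin that activates Cdk1, read 7.34, 7.59, 7.71 and 7.77 in V and 8.57, 9.11, 8.83, 8.24 and 8.32 in E+P. The animals of a group lay close together for Ccnb2, and all 5 E+P animals exceeded all 4 V animals. It was higher in E+P by 1.01 ± 0.18 (limma, adjusted p = 0.0111). Ccnb2 was also higher in E+P than in P, where it read 7.62, 7.90, 7.48 and 7.68, by 0.94 ± 0.18 (limma, adjusted p = 0.0205). The 4 E animals, at 7.78, 8.38, 7.94 and 8.56, lay between and overlapped E+P.

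The other 4 genes of the group did not pass the test. Cks2, a small subunit of Cdk1 complexes, differed by 1.16 ± 0.33 between E+P and V (limma, adjusted p = 0.139). Ccna2, the A-type cyclin of S phase and G2, differed by 0.95 ± 0.31 (limma, adjusted p = 0.201), and its E+P values of 7.22 to 8.39 did not overlap the V values of 6.46 to 7.18. Of the phosphatases that activate Cdk1, Cdc25c showed 1.16 ± 0.37 and Cdc25b -0.18 ± 0.23, with neither past the threshold.

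Pbk was the member with the largest difference. Its product is a mitotic kinase, and its signal was at or near the floor in V, at 4.83, 4.83, 5.00 and 4.88. In E+P it read 7.75, 8.79, 7.90, 7.31 and 7.58, and in E 6.87, 7.38, 7.03 and 7.24. Every E and every E+P animal lay above every V and P animal. In P the animals split: P 1 and P 3 were at the floor and P 2 and P 4 read 5.87 and 6.12. Pbk was higher than in V by 2.98 ± 0.32 in E+P (limma, adjusted p = 3.65e-05) and by 2.24 ± 0.33 in E (limma, adjusted p = 0.00744). Between E+P and P the difference was 2.45 ± 0.32 (limma, adjusted p = 0.00103). A second probe set for Pbk, of the kind whose probes may match a family of transcripts, differed by only 0.16 ± 0.44 between E+P and V. It went the other way in E+P against P, at -1.17 ± 0.44 (limma, adjusted p = 0.272), and in E+P against E+P CFP, at -0.95 ± 0.48 (limma, adjusted p = 0.277).

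Among mitotic kinases and their transcription factor, Pbk was the only one of 4 tested genes past the threshold in E+P against V. Nek2, a centrosomal kinase, differed by 0.76 ± 0.20 (limma, adjusted p = 0.097). Plk1, the Polo-like kinase of mitotic entry, had 2 tested probe sets that disagreed, at -0.04 ± 0.41 and 0.86 ± 0.25. Foxm1, the transcription factor of many G2 and mitosis genes, read 7.40 ± 0.22 (SD, n = 4) in V, 7.67 ± 0.31 (n = 4) in E, 8.03 ± 0.40 (n = 4) in P and 7.47 ± 0.26 (n = 5) in E+P. Its highest group mean was thus in P, and its difference between E+P and V was 0.06 ± 0.19. A second Foxm1 probe set differed by 0.87 ± 0.42 between E+P and V (limma, adjusted p = 0.464). Between P and V it differed by -0.23, against 0.63 on the representative probe set.

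Bub1b, the checkpoint kinase-like protein BubR1, was at the floor in all 4 V animals and in 3 of 4 P animals, where P 3 read 5.07. It read 7.09, 6.94, 6.46, 6.40 and 5.61 in E+P and 6.81, 6.35, 5.29 and 5.37 in E. All 9 animals given estrogen in intact glands were above the floor for Bub1b. Because V gives only an upper bound, E+P was at least 3.17-fold higher, with measured means of 6.50 and 4.83 (limma, adjusted p = 0.0453). It was kept in 7 of 20 fits with 1 animal left out, with an adjusted p of up to 0.147, and was the call of the 11 lost most often. Its probe set passed the filter on low values only with the E+P animals. Bub1b was the only checkpoint or anaphase gene of 6 past the threshold. Cdc20, which activates the anaphase-promoting complex, differed by 0.86 ± 0.21 between E+P and V with no overlap of the groups (limma, adjusted p = 0.0819). Mad2l1, the Mad2 checkpoint protein, differed by 0.35 ± 0.27. Bub3, which carries Bub proteins to kinetochores, differed by 0.23 ± 0.11 on its representative probe set and by -0.31 ± 0.34 on another.

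Birc5, or survivin, was the only one of 4 genes of the chromosomal passenger complex past the threshold in E+P against V. It read 4.31, 4.60, 4.02 and 4.61 in V and 6.31, 7.55, 6.47, 6.21 and 5.80 in E+P. The E animals read 5.25, 6.50, 5.77 and 6.00 and the P animals 5.47, 6.25, 4.92 and 5.69. Every animal given either hormone, or both, was above every V animal for Birc5. The difference from V was 2.08 ± 0.34 in E+P (limma, adjusted p = 0.00593), 1.50 ± 0.36 in E (limma, adjusted p = 0.0967) and 1.20 ± 0.36 in P (limma, adjusted p = 0.413). The other 3 members of the complex had positive differences in E+P without passing: Aurkb, its kinase, by 1.63 ± 0.48, Cdca8, or borealin, by 0.95 ± 0.26, and the scaffold Incenp by 0.91 ± 0.27. Their adjusted p were 0.154, 0.127 and 0.155 (limma).

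Cenph, a kinetochore protein, read 4.83, 4.83, 4.83 and 5.24 in V and 6.70, 8.33, 7.13, 7.09 and 6.50 in E+P. In E it read 5.41, 6.52, 6.77 and 4.83, and in P 3 of 4 animals were at the floor while P 3 read 6.58. Only the E+P group was above the floor in every animal and clear of V. The difference between E+P and V was 2.22 ± 0.45 (limma, adjusted p = 0.0292). It did not pass without V 1, V 2, V 3, E+P 2 or E+P 3, with an adjusted p of at most 0.111. Its representative probe set is of the family kind, and 2 other Cenph probe sets gave -0.61 ± 0.51 and 0.73 ± 0.50. Neither Cenpa, the centromeric histone, nor Cenpe, a kinetochore motor, passed, with 0.33 ± 0.18 and 0.40 ± 0.44.

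All 6 tested spindle genes had a positive difference in E+P against V, and 2 of them, Stmn1 and Kif22, rose. Stmn1, or stathmin, which destabilises microtubules and is switched off by mitotic kinases, read 7.55, 7.66, 7.52 and 7.76 in V and 9.15, 10.51, 9.46, 8.86 and 9.31 in E+P. The V values lay close together, and the lowest E+P value was above all of V and P. Against V the difference was 1.84 ± 0.29 (limma, adjusted p = 0.00506), and against P 1.56 ± 0.29 (limma, adjusted p = 0.0202). The E animals, at 7.87, 8.51, 8.32 and 8.96, overlapped E+P in E 4. Kif22, a chromosome-arm motor, read 6.56, 7.03, 7.02 and 7.22 in V and 8.32, 9.20, 8.51, 7.62 and 8.10 in E+P, and was higher by 1.39 ± 0.29 (limma, adjusted p = 0.0365). That call was lost without V 1, V 2, V 3 or any E+P animal other than E+P 4, with an adjusted p of at most 0.114. A second Kif22 probe set had a difference of similar size, 1.40 ± 0.53, that did not pass. Kif11, which pushes the spindle poles apart, differed by 1.49 ± 0.41, Nusap1 by 1.34 ± 0.51, Tpx2 by 1.09 ± 0.33 and Kif2c by 0.83 ± 0.27, with none past the threshold.

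Of 3 tested cytokinesis genes, Kif23 rose in E+P against V. Kif23 is the motor of the complex that organises the spindle midzone. It read 5.49, 5.01, 5.38 and 3.75 in V and 7.23, 7.35, 6.55, 7.20 and 6.39 in E+P, and the groups did not overlap. In V 4 it was at the floor. The E animals read 6.34, 6.99, 6.12 and 6.81 and the P animals 5.92, 6.17, 6.24 and 6.38, and each lay above all of V. The difference from V was 2.03 ± 0.41 in E+P (limma, adjusted p = 0.0295), 1.66 ± 0.43 in E (limma, adjusted p = 0.129) and 1.27 ± 0.43 in P (limma, adjusted p = 0.464). Leaving out V 2, V 3, V 4, E+P 1 or E+P 2 raised the adjusted p of the E+P difference above 0.05, up to 0.106. Another Kif23 probe set gave -0.23 ± 0.47. Prc1, which bundles midzone microtubules, differed by 1.66 ± 0.51 and Racgap1, the partner of Kif23, by 0.84 ± 0.30 between E+P and V, without passing.

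Mki67, which encodes the proliferation antigen Ki-67 of the chromosome surface, was the only one of 4 chromosome structure genes past the threshold. It read 5.10, 5.85, 5.16 and 5.87 in V and 7.54, 8.68, 7.85, 6.67 and 7.02 in E+P. In E it read 6.52, 7.57, 6.60 and 7.02, above all of V, and in P 5.18, 6.43, 5.53 and 6.31, overlapping V. E+P exceeded V by 2.06 ± 0.39 (limma, adjusted p = 0.0195). Without V 1, V 3, E+P 2 or E+P 3 the adjusted p was above 0.05, at most 0.090. A second Mki67 probe set differed by 0.25 ± 0.26. Top2a, the topoisomerase that untangles chromosomes, differed by 1.80 ± 0.50 with no overlap between E+P and V (limma, adjusted p = 0.132). The condensin subunits Smc2 and Smc4 differed by 0.71 ± 0.29 and 0.34 ± 0.31.

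Cdca4, a nuclear protein induced with the cell cycle, showed small differences with little spread. It read 6.82, 7.02, 6.87 and 7.02 in V, 7.54, 7.80, 7.59 and 7.93 in E, 7.42, 7.79, 7.48 and 7.39 in P and 7.73, 7.72, 7.48, 7.64 and 7.73 in E+P. All 13 hormone-treated glands were above all 4 V glands for Cdca4. It was higher than in V by 0.73 ± 0.12 in E+P (limma, adjusted p = 0.00644) and by 0.79 ± 0.13 in E (limma, adjusted p = 0.00865). In P the difference was 0.59 ± 0.13 (limma, adjusted p = 0.18). Its E and E+P values overlapped. Its second probe set gave -0.07 ± 0.15 between E+P and V.

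**Figure D3:**
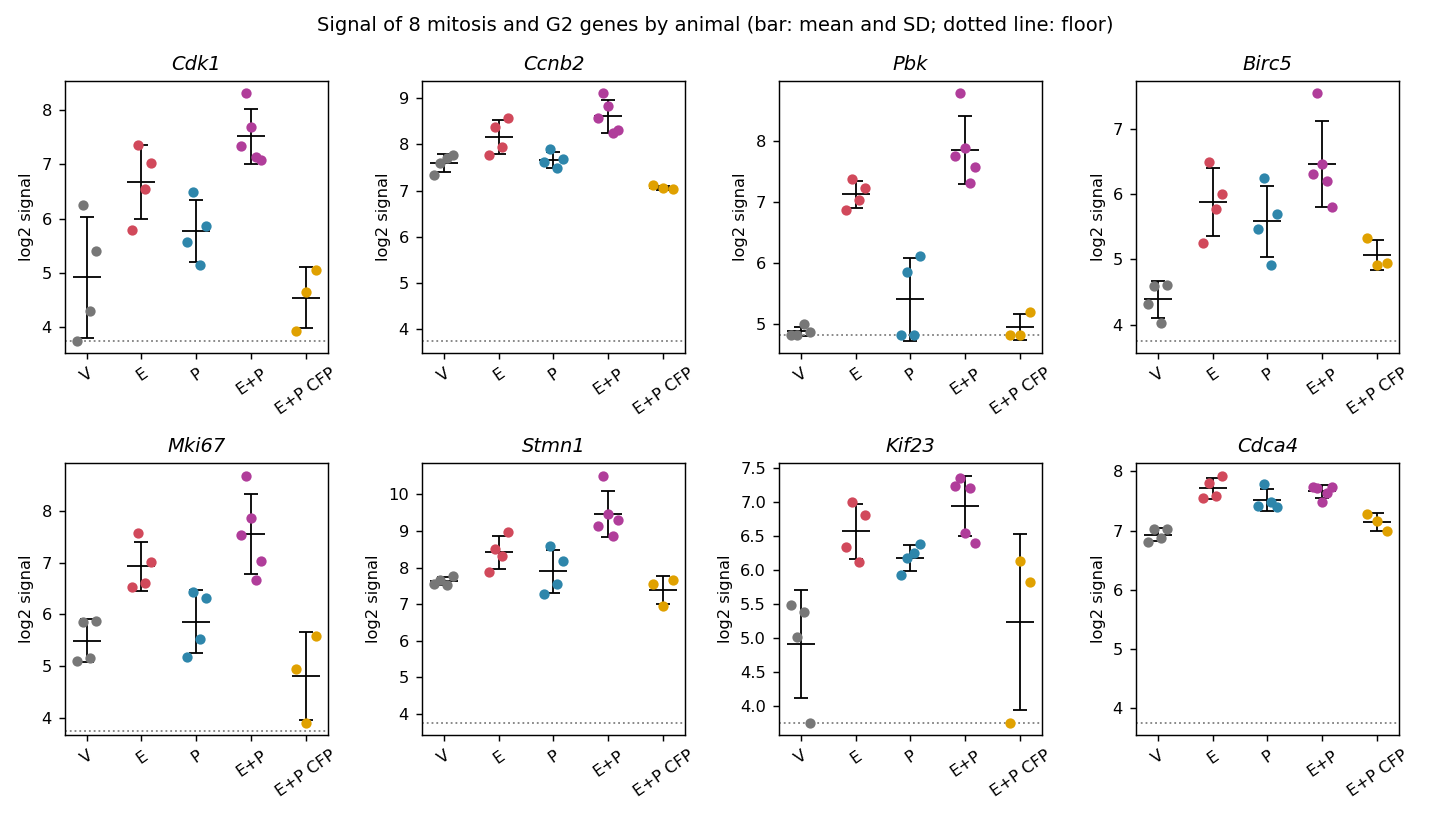
Log2 signal of 8 mitosis and G2 genes by animal (points) in 5 groups, with the group mean and SD (bars) and the floor (dotted line). For each gene the E+P points lie above all V points; the E points lie above all V points for each except Cdk1.

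Further probe sets of the same genes did not pass in E+P against V, and 1, of Aurkb, passed in E+P against E+P CFP. Of 14 genes with more than 1 tested probe set, 16 further probe sets were tested, and none of the 16 was past the threshold in E+P against V. Of these 16, 10 were above 0. Kif23, Cenph and Cdca4, past the threshold on their representative probe set, each had another below 0. In E+P against E+P CFP the same held for Kif23, Cenph, Cdca4 and Pbk, and in E+P against P for Pbk. Of the representative probe sets, 8 carry a suffix that marks probes shared within a family or chosen with relaxed rules, among them those of Cenph and Kif22, so that these signals may include other transcripts.

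Estrogen alone raised 2 of the 53 member probe sets (3.77%), those of Pbk and Cdca4, and lowered none. The background was 0.0824% higher and 0.0998% lower. The median difference was 0.55 for the member probe sets and 0.00 for all. An unadjusted p under 0.05 was found for 18 of 53 member probe sets and 2797 of all 23055. The comparisons of E, P and E+P with V share the V animals. Leaving out E 4 left 1 of the 2, Pbk, since the adjusted p of Cdca4 became 0.0518 (limma). Over all probe sets 8 were then higher and 5 lower, against 19 and 23. Progesterone alone gave no member past the threshold by limma, with 0% of all probe sets past it in either direction. There 8 of 53 member probe sets and 1860 of all 23055 had an unadjusted p under 0.05. No alternative fit gave a member call. The member median in P against V was 0.28, against 0.01 over all.

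Adding progesterone to estrogen gave no member past the threshold in E+P against E (limma), where the background was 0.0737% higher and 0.0694% lower. The median difference was 0.23 for members. An unadjusted p under 0.05 was found for 8 of 53 member probe sets and 2288 of all 23055. Stmn1, at 1.04 ± 0.29 (limma, adjusted p = 0.224), and Kif22, at 0.98 ± 0.29 (limma, adjusted p = 0.244), had the smallest p among members. Adding estrogen to progesterone raised 3 member probe sets (5.66%) in E+P against P, those of Pbk, Stmn1 and Ccnb2, and lowered none, with 0.278% of all higher and 0.0824% lower. The member median was 0.59. Only Pbk was left without P 1, E+P 2 or E+P 3, Stmn1 and Ccnb2 were also lost without P 3 (adjusted p up to 0.0833 over these fits, limma), and 5 member probe sets passed without E+P 4. Higher calls over all probe sets, 64 with all animals, were 38, 14, 27 and 24 without P 1, E+P 2, E+P 3 and P 3. Without E+P 4 they were 78.

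No member differed between E and P (limma), where the background was 0.0564% higher and 0% lower. An unadjusted p under 0.05 was found for 8 of 53 member probe sets and 1826 of all 23055. Pbk came closest, at 1.72 ± 0.33 (limma, adjusted p = 0.0534), and it passed when E+P 2 was left out. Its second probe set went the other way, at -1.18. The interaction asks whether progesterone changed the signal by a different amount with and without estrogen. No member passed in this test (limma), with 0.0347% of all probe sets higher and 0.039% lower. Of 53 member probe sets, 2 had an unadjusted p under 0.05, against 2688 of all 23055. The 2 members were Cdca4, at -0.65 ± 0.18 (limma, adjusted p = 0.171), and Foxm1, at -0.83 ± 0.28 (limma, adjusted p = 0.26). The second Foxm1 probe set went the other way, at 0.84, and the second Cdca4 probe set gave -0.28. The median interaction of the member probe sets was 0.06. A p that misses the threshold does not show that the effects added up.

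Markers of other cell types were not even across the groups. The lymphocyte and plasma cell score was 0.39 to 1.69 in E, -1.16 to 0.88 in P and -1.35 to 0.67 in E+P, and -1.25 to 1.20 in V. The summed signal of its 17 tested markers was 868 to 4308 in V, 2396 to 8614 in E, 906 to 3565 in P and 860 to 2859 in E+P, and no marker was at the floor throughout a group. Against V, 16 of the 17 markers were above 0 in E and 12 in E+P, with none past the threshold in either. Of the E+P animals, 1, 3 and 5 had scores of -1.35 to -1.15, near those of V 1, V 2 and V 3. Their mean deviation over the 37 genes was 0.28 to 0.73, and -0.66 to -0.42 in those V animals. The part of lymphocytes and plasma cells in the members' differences was not tested. With the lymphocyte score in the model, the count of members higher in E+P against V was 11. In E against V it was 0, and the member median there was 0.33. Over all probe sets that fit gave 69 higher and 59 lower in E+P against V, against 58 and 49 without the score. In E against V it gave 4 and 2, against 19 and 23. Pbk then differed by 2.19 between E and V (limma, adjusted p = 0.0552) and Cdca4 by 0.70 (limma, adjusted p = 0.0952). The count in E+P against P was then 8, with 96 higher and 57 lower over all probe sets, against 64 and 19 without the score.

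Luminal epithelium markers also differed among the hormone groups. Its score, over 16 tested markers, was 0.28 to 0.63 in V, 0.15 to 0.88 in E, 0.05 to 0.30 in P and 0.64 to 1.21 in E+P. The summed signal was 5237 to 6826 in V and 6520 to 9702 in E+P. Of the 16, 14 were above 0 in E+P against V and 1, Ehf, was past the threshold. With the luminal score in the model no member passed in E+P against V or in E+P against P. The member medians were 0.71 and 0.37. Over all probe sets that fit gave 0 higher and 1 lower in E+P against V, against 58 and 49 without the score. In E+P against P it gave 1 and 1, against 64 and 19. The fitted differences of the 11 genes were then 0.64 to 1.16 times those without the score. Pbk differed by 2.57 (limma, adjusted p = 0.0994), Cdk1 by 2.59 (limma, adjusted p = 0.37) and Stmn1 by 1.17 (limma, adjusted p = 0.476). Luminal content and the level of the members cannot be told apart in whole glands.

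Endothelial and adipocyte markers were uneven as well. Of 10 endothelial markers 8 were below 0 in E against V, with Cd93 and Cldn5 past the threshold, and 8 in E+P against V, with Cd93, Cdh5 and Cldn5 past it. Their summed signal was 2548 to 3753 in V, 2577 to 3592 in P, 2039 to 2352 in E and 1906 to 2818 in E+P. Of 10 adipocyte markers 8 were below 0 in E against V and 9 in E+P against V, with none past the threshold in either. Their summed signal was 24367 to 31380 in V, 26838 to 32651 in P, 20405 to 27836 in E and 19482 to 26947 in E+P. The part of either cell type in the members' differences was not tested.

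**Figure D4:**
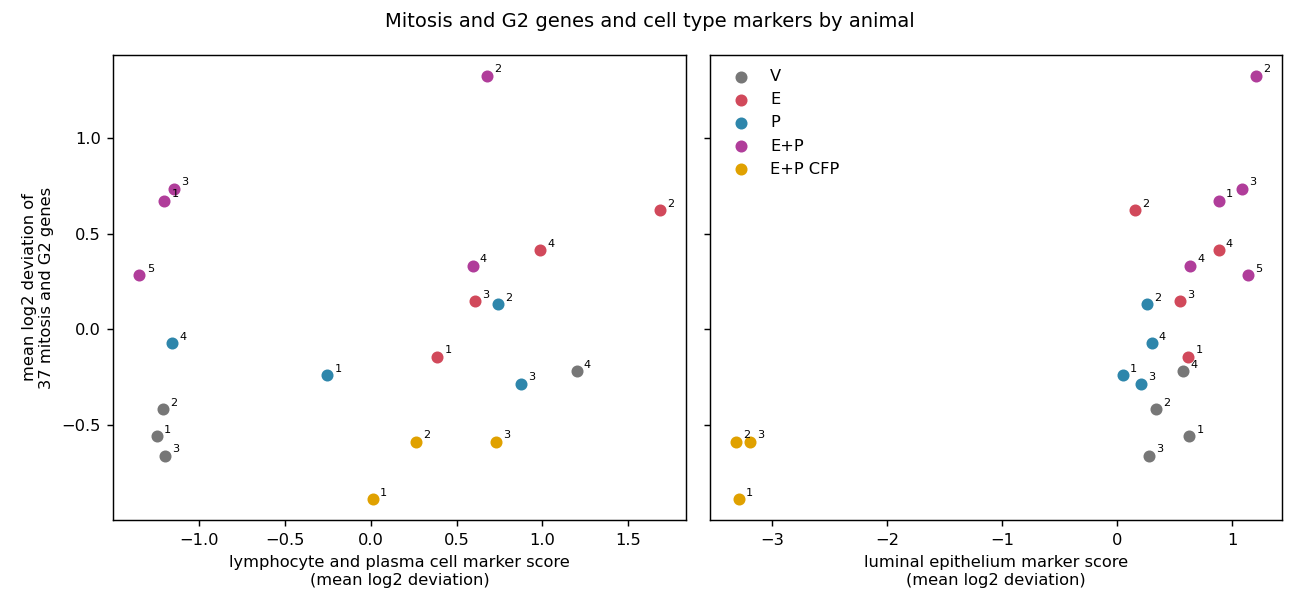
Mean log2 deviation of the 37 mitosis and G2 genes (vertical axis) against the lymphocyte and plasma cell score (left) and the luminal epithelium score (right) in 20 animals; numbers are replicate numbers. E+P 1, 3 and 5 sit at lymphocyte scores near those of V 1, 2 and 3 and higher on the vertical axis. The fat pads sit at luminal scores near -3.2.

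Compared with fat pads of mice given the same hormones, the intact E+P gland had 23 member probe sets (43.4%) higher, of 22 genes, and none lower. Here the background was far larger, 5.24% higher and 2.66% lower. The member median was 1.04, against 0.02 over all. By role these were 5 of 6 genes of cyclins and Cdk1 partners, 3 of 4 of the passenger complex, 3 of 3 of cytokinesis, 4 of 6 spindle genes, 2 of 4 kinases, 2 of 4 chromosome structure genes, 1 of 3 kinetochore genes and 1 of 6 checkpoint genes, besides Cdca4. With median scaling, which moved the median of all probe sets to -0.11, 19 member probe sets were higher. All probe sets past the threshold were then 830 higher and 1209 lower, against 1208 and 613. Median scaling likewise gave 49 higher and 73 lower in E+P against V, against 58 and 49.

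Cdk1 read 3.94, 4.65 and 5.05 in the fat pads, below all E+P glands by 2.96 ± 0.48 on average (limma, adjusted p = 0.000287). Pbk read 4.83, 4.83 and 5.20 there, at or near the floor, and differed by 2.91 ± 0.34 (limma, adjusted p = 3.65e-06). Mki67, at 4.94, 3.91 and 5.58, differed by 2.74 ± 0.42 (limma, adjusted p = 2e-04). Ccnb2, at 7.11, 7.06 and 7.03, was the most even of these in the fat pads and differed by 1.55 ± 0.19 (limma, adjusted p = 1.55e-05).

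Several genes that had not passed in E+P against V did pass here. Of these, Cdc25c, Kif2c, Kif11 and Top2a were tested only because the E+P animals brought them over the filter on low values. Prc1 read 3.75, 4.16 and 3.75 in the fat pads against 7.00, 7.64, 7.03, 6.45 and 5.80 in the glands, a difference of 2.90 ± 0.55 (limma, adjusted p = 0.00177). Aurkb, with 2 fat pads at the floor, differed by 2.57 ± 0.52 on its representative probe set and by 1.92 ± 0.52 on another, both past the threshold. The second was lost without E+P 2 or E+P CFP 2 (adjusted p up to 0.169, limma). Cdc25c differed by 2.10 ± 0.40 and Top2a by 2.05 ± 0.54, the latter not past the threshold without E+P 2, E+P CFP 1 or E+P CFP 2 (adjusted p up to 0.123, limma). Cdca8, read at 5.01, 4.89 and 4.04 in the fat pads, differed by 1.65 ± 0.28 (limma, adjusted p = 0.000613). For 20 of the 22 genes the E+P glands and the fat pads did not overlap, the exceptions being Kif11 and Ccna2. These groups were apart for 22 of all 37 members (59.5%) and for 18.3% of all genes.

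Birc5 and Cdca4 were higher in the E+P glands than in the fat pads by 1.40 ± 0.37 and 0.51 ± 0.13. Birc5 was not past the threshold without E+P 2, E+P CFP 2 or E+P CFP 3 (adjusted p up to 0.0773, limma), nor Cdca4 without E+P CFP 3 (adjusted p = 0.0925, limma). Of the 37 member genes, 6 had an unadjusted p under 0.05 in the fat pads against V, and 0 were past the threshold. Over all genes the count at that unadjusted level was 2045 of 12233. Member probe sets at that level numbered 7 of 53, against 3256 of all 23055. Among the alternative fits only that with the lymphocyte score in the model gave a member call, which was lower in the fat pads. It was Cdc25b, at -0.98 (limma, adjusted p = 0.0376), against -0.78 ± 0.27 (limma, adjusted p = 0.135) without the score, and it was named after its value was seen. The background of that comparison was 0.685% higher and 2.41% lower, and the member median was -0.07. Ccnb2, at -0.53 ± 0.20 (limma, adjusted p = 0.203), Cdca8, Cdc25b and Plk1 lay below all V glands. Of the 37 member genes, 13 had a difference above 0, the largest being 0.91. Fat pads and V glands were apart, in either direction, for 6 of the 37 members (16.2%) and for 15.6% of all genes, a similar share.

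**Figure D5:**
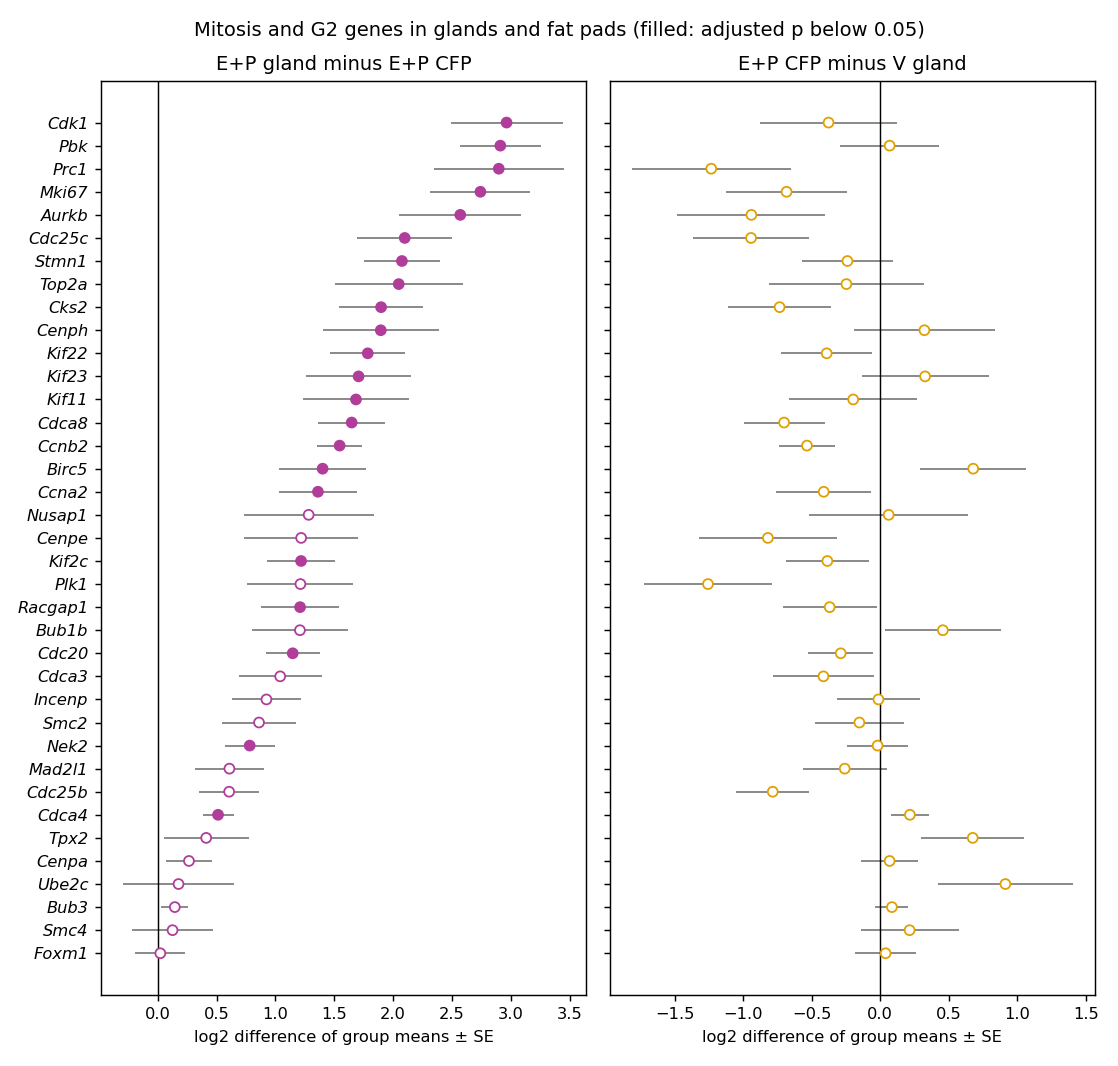
Difference of group means (horizontal axis, log2, ± SE) for 37 mitosis and G2 genes: E+P glands minus E+P CFP fat pads (left) and fat pads minus V glands (right); filled points had an adjusted p under 0.05. All 37 points on the left are above 0 and 22 are filled; none is filled on the right, where 13 are above 0.

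Fat pads and glands differ in most of their cells. The luminal score was -3.31 to -3.19 in the fat pads, where the summed signal of the luminal markers was 398 to 422. Krt8, Krt19, Epcam, Elf5, Cldn7, Spint1 and Foxa1 were at the floor in all 3 fat pads. The summed skeletal muscle signal was 5942 to 9836, against 863 to 1939 in E+P glands, with 11 of 12 muscle markers past the threshold and higher in the fat pads. Adipocyte markers summed to 35366 to 39741 in the fat pads, with 7 of 10 higher there than in the E+P glands, and lymphocyte and plasma cell markers to 2302 to 2808. The absence of epithelium and the level of the members cannot be told apart here. With the luminal score in the model no member passed and the median was 0.14. Over all probe sets 0 were then higher and 0 lower, against 1208 and 613 without the score.

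The members moved together across animals. Over the 37 genes the median correlation between 2 genes was 0.60 across 20 animals, and 0.36 for deviations from group means, with 86.9% of the 666 pairs above 0. Over all tested genes on array A the median was 0.00. The genes of a pair were read in the same animals, with the same scaling and groups, so this is a description. E+P 2 was high for most members at once, beside the highest luminal score of all animals (1.21).

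Genes of neighbouring pathways, listed by function, followed to different degrees. Of 36 tested DNA replication genes, 4 rose in E+P against V and none fell, while 42 of all 12233 genes rose and 39 fell. The replication genes that rose were Uhrf1, which maintains DNA methylation at forks, by 1.82 ± 0.34, Tk1, thymidine kinase, by 2.43 ± 0.51, Rrm2, a subunit of ribonucleotide reductase, by 2.30 ± 0.49 and Mcm4, of the replicative helicase, by 0.98 ± 0.22. Their adjusted p were 0.0157, 0.0349, 0.0397 and 0.0499 (limma). The list's median was 0.73. Against the fat pads 14 of the 36 were higher, while 845 of all 12233 genes were higher and 432 lower.

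Of 55 tested further mitosis genes none was past the threshold in E+P against V (limma), while 15 had an unadjusted p under 0.05. Over all genes, 1502 of 12233 had such a p. The median of the list was 0.27. Against the fat pads 6 of the 55 were higher, while 845 of all 12233 genes were higher and 432 lower. Among the 6 were Anln, a midbody scaffold, by 1.92 ± 0.28 and Lmnb1, a nuclear lamin, by 1.39 ± 0.31. Of 8 tested pocket proteins and repressors of cell cycle genes none passed in E+P against V and 1 had an unadjusted p under 0.05. Lin9 and Rbl1 were higher in the E+P glands than in the fat pads, by 0.74 ± 0.21 and 0.78 ± 0.24. Of 18 tested G1 cyclins, kinases and inhibitors none passed in E+P against V, with 4 at an unadjusted p under 0.05 and a median of 0.17. Against the fat pads 4 of the 18 were higher and 3 lower, beside the same 845 and 432 of all 12233 genes. Ccnd1, the D-type cyclin of luminal cells, was higher by 1.59 ± 0.22, and Ccnd2, another D-type cyclin, differed by -1.41 ± 0.38.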

How the data were processed

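The authors deposited a table of signal intensities per probe set for each array. Per the submitters' processing notes the tool was MAS5, with settings not given in the sources used here. The values were on a linear scale with a like trimmed mean on every array, and 3 arrays of 1 animal were joined by the group and replicate number in the titles (Gapdh ratios correlated at 0.969 to 0.989 between array types). Gene names came from the platform's annotation table. For this report each array was scaled to a common 2% trimmed mean, given a floor at the 25th percentile over its array type and put on the log2 scale. Probe sets above the 50th percentile in at least 3 animals were tested. limma 3.58.1 in R 4.3.3 fitted 5 group means per array type with an intensity trend, with 9 comparisons and Benjamini-Hochberg adjustment over all array types. The script was tested on simulated data. To represent a gene, array A was preferred to B and B to C, a plain probe set name to one with a suffix, and then the brighter probe set. Values by animal are given for members past the threshold in any comparison and for the 10 largest differences in E+P against V, the latter ranked on representative probe sets. Genes of other lists were named by smallest adjusted p, at most 4 a list. Marker scores are mean deviations of tested markers from their mean over the animals. The members and lists were chosen with earlier results of these data known. Same-numbered animals of different groups did not deviate together (correlations of -0.10 to 0.10), so numbers were not taken as pairs.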

Additional observations from a re-analysis of the deposited data

Results flagged for a closer look

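In groups of 4 or 5 animals, 96 groups of values of the named genes were examined for 1 animal far from the rest, and 3 were found, where chance gives about 1 in 20. Cenph read 5.24 in V 4 and 6.58 in P 3, while the other 3 animals of each group were at the floor of 4.83. Bub1b read 5.07 in P 3, while the other 3 P animals were at the same floor. The floor makes the other values equal, so these gaps measure only the distance to it. V 4 also had a high lymphocyte score (1.20) and Gapdh ratio (3.42), and the part of these was not tested.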

How the results depend on the processing

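Counts here are member probe sets past the threshold and higher; 16 alternatives were fitted beside leaving out each of 20 animals. In E+P against V (11), the fit on the compared groups only gave 5 and the luminal score in the model 0, and leaving out 1 animal gave 6 to 11. Over all probe sets the compared groups only gave 30 higher and 14 lower, against 58 and 49. In E against V (2), array weights gave 4, the compared groups only 1 and the lymphocyte score 0, and leaving out 1 animal 1 to 3. There array weights gave 135 higher and 146 lower over all probe sets, against 19 and 23. The compared groups only gave 13 and 15, and the lymphocyte score 4 and 2. In E+P against P (3), the floor at the 40th percentile gave 5, an offset of 32 in place of the floor 6, the compared groups only 1, the lymphocyte score 8 and the luminal score 0, and leaving out 1 animal 1 to 5. Over all probe sets the higher calls in these fits, in the same order, were 97, 86, 22, 96 and 1, against 64. In E against P (0), a fit with no intensity trend gave 1, and leaving out 1 animal 0 to 1. The fit with no trend gave 8 higher over all probe sets there, against 13. In E+P against E+P CFP (23), a filter above the 60th percentile in 4 animals, which tests fewer probe sets, gave 13, the luminal score 0, and leaving out 1 animal 16 to 25. That filter left 31 member probe sets and gave 1105 higher and 624 lower over all, against 1208 and 613. The other 4 comparisons gave 0 in every alternative. With the luminal score, calls over all probe sets also fell, to 0 higher and 1 lower in E+P against V and 0 and 0 in E+P against E+P CFP. Of member calls in the lower direction there was 1, in E+P CFP against V with the lymphocyte score. Where no cause is named, the cause was not tested. Of 1389 pairs of a named call and an alternative, 1234 kept the call, 144 lost it and 11 changed sign. The 11 were in E+P against E+P CFP with the luminal score in the model, where the score nearly separates the groups: Cdc25c -2.15, Kif2c -0.71, Racgap1 -0.90, Prc1 -0.80, Kif22 -1.55, Stmn1 -3.22, Mki67 -0.89, Kif11 -2.01, Top2a -0.55, Pbk -0.32 and the second Aurkb probe set -4.58. The replicate number as a block gave 3 in E against V, 9 in E+P against V, 3 in E+P against P and 23 in E+P against E+P CFP. Over all probe sets the higher calls with this block were 20, 30, 22 and 942, against 19, 58, 64 and 1208. Signals near the floor, such as those of Pbk, Bub1b and Cenph in V, limit the size of their differences.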
